A study of Mus musculus with 9 samples.

Results

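The choroid plexus genes Ttr, Folr1, Kl, Clic6, Otx2, Aqp1, Slc4a5, Sostdc1 and Enpp2 were followed by symbol through 9 brain libraries of KM mice, an outbred stock. All 9 genes were found among the 22192 genes of the deposited table, and their NCBI gene numbers matched those of RefSeq. Values are TPM (transcripts scaled for gene length and to a fixed library total). A gene was tested where its 9 libraries averaged 1 TPM or more, which held for 13301 genes. Of the choroid plexus genes 8 passed, and Slc4a5, with a mean of 0.453 TPM, did not. Kl, with a mean of 1.23 TPM, passed through its young libraries, since the means of both aged groups were under 1 TPM.

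The mice were labelled male. Young mice of 5 months (5M_Ctrl) and aged mice of 18 months (18M_Ctrl) were given physiological saline by mouth every 2 days for 4 weeks. The treated mice (18M_E1F2), also 18 months old, were given 200 mg/kg of GRP-E1F2, a polysaccharide of ginseng root, by gavage on the same schedule. Each group held 3 libraries, called parallel samples in the labels. No label says whether these came from separate animals or which part of the brain was taken. The spread behind each p-value is thus one between libraries and may be technical.

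The choroid plexus is a fringe of secretory epithelium in the brain ventricles, resting on fenestrated capillaries and loose stroma. Its epithelial cells make most of the cerebrospinal fluid by moving sodium, chloride, bicarbonate and water into the ventricle, and they secrete carrier proteins and signalling antagonists. Transthyretin, encoded by Ttr, is among the most abundant transcripts of these cells and is absent from most other brain cells. Several of the other genes are also expressed elsewhere, Enpp2 in oligodendrocytes, Kl and Clic6 in some neurons, and Otx2 in midbrain, thalamic and cerebellar lineages.

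Some features of the libraries touch every result below. Young library 3, aged library 2 and treated library 3 lay between the other pair of their group at 89.2%, 91.5% and 91.8% of the tested genes that differed at least 1.3-fold between that pair, against 19.2% to 30.5% for the other 6 libraries. Calls made from 2 libraries per group, without those 3, are therefore given as well. The summed level of 6 cerebellar neuron genes was 2736 to 3998 TPM in the young, 1589 to 1984 TPM in the aged and 21.2 to 32.8 TPM in the treated libraries. A difference in the part of brain sampled and one between the groups cannot be told apart here. The summed level of 5 anterior pituitary genes was 1.60 TPM in treated library 1, 440.6 TPM in treated library 3 and 873 TPM in treated library 2, where Prl, Gh and Cga reached 554, 263.5 and 48.4 TPM, and none of the 5 passed with age or with GRP-E1F2 against saline. Against the young libraries Gh, Prl and Cga passed as higher in the treated (limma, adjusted p = 0.0364, 0.0349 and 0.0379). They stood at 0, 0.360 and 0 TPM in treated library 1, so this came from treated libraries 2 and 3. Cga passed the filter on low values only through these libraries. The highest value of the 4 Y-linked genes Uty, Kdm5d, Eif2s3y and Ddx3y was 0.174 TPM, which goes against the labelled sex, and the extraction text speaks of retinas although the tissue is labelled brain. Brain genes were abundant, such as Snap25 of nerve terminals at 2448 to 3573 TPM, Slc17a7 of excitatory neurons at 359 to 782 TPM and Gad1 of inhibitory neurons at 251 to 465 TPM.

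Among the secreted proteins, Ttr carries thyroid hormone and, bound to retinol-binding protein, vitamin A (chromosome 18, 20664209 to 20674326, mm10). In the young libraries it stood at 2282, 2229 and 2224 TPM. In the aged libraries it stood at 155, 782 and 1241 TPM. In the treated libraries it stood at 951, 15.6 and 481 TPM. The young libraries were nearly equal, every aged and treated library lay below all of them, and the aged and treated libraries overlapped. The group means were 2245 ± 32.2 TPM in the young, 726 ± 545 TPM in the aged and 483 ± 468 TPM in the treated libraries (SD, n = 3 each).

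Between its highest and lowest library Ttr differed 146-fold, and it differed 61.0-fold among the 3 treated libraries alone. Ttr made up 95.1% to 95.2% of the summed TPM of the 9 genes in the young libraries, but 72.0% in aged library 1 and 25.7% in treated library 2. The aged mean was 32.3% of the young mean. With this spread the difference did not pass (log2 fold change -2.07, SE 1.34, adjusted p = 0.307). Treated against aged saline gave -1.44 (SE 1.34, adjusted p = 0.486), and treated against young gave -3.51 (SE 1.34, adjusted p = 0.057).

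Sostdc1 encodes a secreted antagonist of BMP and Wnt signalling (chromosome 12, 36314169 to 36318452, mm10). It was 4.73, 5.70 and 4.45 TPM in the young, 0.443, 1.75 and 2.72 TPM in the aged and 3.45, 1.43 and 2.00 TPM in the treated libraries. As for Ttr, aged library 1 and treated library 2 were the lowest of their groups, and no young library overlapped with the aged or treated ones. Sostdc1 fell with age, its mean going from 4.96 ± 0.656 to 1.64 ± 1.14 TPM (SD, n = 3). The log2 fold change was -1.27 (SE 0.328, adjusted p = 0.0326).

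Enpp2 encodes autotaxin, the secreted enzyme that makes lysophosphatidic acid (chromosome 15, 54838901 to 54952789, mm10). It was 92.4, 94.6 and 93.2 TPM in the young, 50.9, 47.7 and 48.6 TPM in the aged and 69.8, 37.5 and 52.8 TPM in the treated libraries. Unlike Ttr, it hardly varied among the aged libraries, whose highest value was 1.07 times the lowest, while Ttr differed 8.02-fold among them. Enpp2 fell with age to 52.5% of the young mean (log2 fold change -0.92, SE 0.175, adjusted p = 0.0132). Genes of mature oligodendrocytes, which also make Enpp2, fell at 7 of 8 in the same comparison, beside 11.2% of all tested genes. The myelin genes Mbp (-0.45) and Mobp (-0.41) were among the 7. None of the 8 passed with 2 libraries per group, while 6 had an unadjusted p under 0.05 (limma). Their summed level was 9221 to 9796 TPM in the young, 6249 to 7533 TPM in the aged and 5634 to 5820 TPM in the treated libraries. Their part in the Enpp2 result was not tested.

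**Figure D1:**
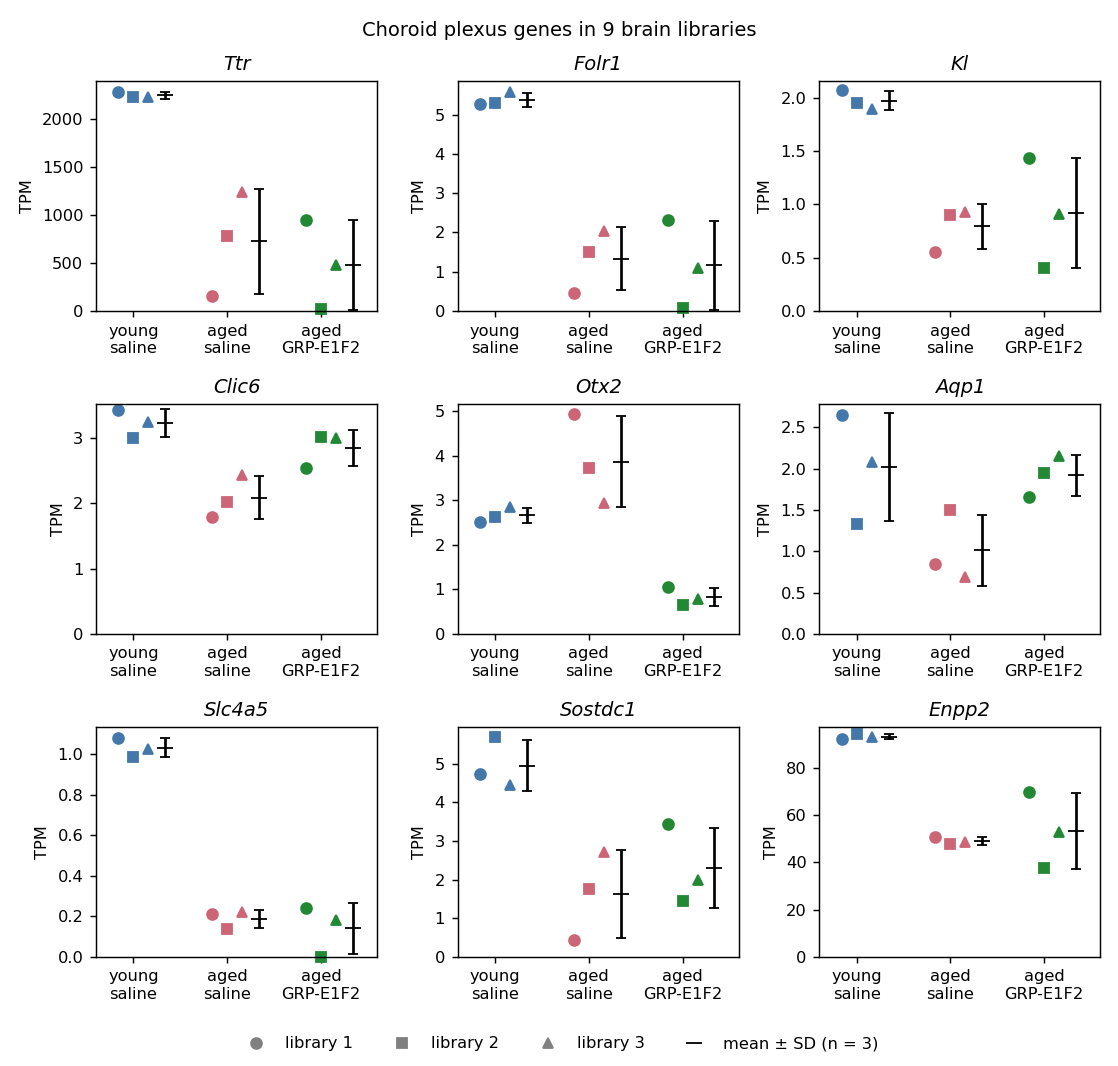
TPM of the 9 choroid plexus genes (vertical axes, each from 0) in the young saline, aged saline and aged GRP-E1F2 libraries, with 1 point per library and the mean ± SD of 3 libraries beside it. Ttr, Folr1, Kl, Slc4a5, Sostdc1 and Enpp2 are highest in the 3 young libraries, Otx2 is highest in the aged saline libraries, and treated library 2 is at or near the bottom of most panels.

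Folr1 encodes the folate receptor alpha, which carries folate across the choroid epithelium into the fluid (chromosome 7, 101858331 to 101870788, mm10). It was 5.27, 5.29 and 5.58 TPM in the young, 0.459, 1.49 and 2.05 TPM in the aged and 2.33, 0.0707 and 1.10 TPM in the treated libraries. The libraries took the same order as for Ttr within the aged and within the treated group, down to near 0 in treated library 2. Folr1 fell with age, its mean going from 5.38 ± 0.174 to 1.33 ± 0.807 TPM (SD, n = 3). The log2 fold change was -1.52 (SE 0.385, adjusted p = 0.0315).

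Kl encodes Klotho, the co-receptor of FGF23 whose shed form circulates, and mice that lack it age early (chromosome 5, 150952607 to 150993817, mm10). It was 2.07, 1.95 and 1.90 TPM in the young, 0.553, 0.903 and 0.931 TPM in the aged and 1.43, 0.403 and 0.907 TPM in the treated libraries. Again no young library overlapped with the others, and aged library 1 and treated library 2 were lowest. Kl fell with age to 40.3% of the young mean (log2 fold change -0.73, SE 0.183, adjusted p = 0.0298).

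Among the transport genes, Slc4a5 encodes the sodium bicarbonate cotransporter NBCe2 of the ventricular face of the epithelium (chromosome 6, 83207580 to 83304945, mm10). It was 1.08, 0.987 and 1.03 TPM in the young, 0.209, 0.136 and 0.219 TPM in the aged and 0.240, 0 and 0.181 TPM in the treated libraries. The young libraries lay at least 4-fold above every other library. Without the filter on low values, its difference with age passed (log2 fold change -0.77, SE 0.0767, adjusted p = 0.00218), and so did treated against young (-0.84, adjusted p = 0.000138). In a fit with no filter and 2 libraries per group these adjusted p-values were 0.279 and 0.0269.

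Aqp1 encodes the water channel of the ventricular membrane and of erythrocytes (chromosome 6, 55336299 to 55348555, mm10). It was 2.65, 1.34 and 2.08 TPM in the young, 0.843, 1.50 and 0.693 TPM in the aged and 1.66, 1.95 and 2.15 TPM in the treated libraries. Young library 2 lay below aged library 2, and treated library 2, lowest for Ttr, was not lowest for Aqp1. The difference with age did not pass (log2 fold change -0.58, SE 0.189, adjusted p = 0.0631), nor did treated against aged saline (0.55, SE 0.189, adjusted p = 0.0678).

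Clic6 encodes an intracellular chloride channel protein (chromosome 16, 92498147 to 92541241, mm10). It was 3.43, 3.00 and 3.24 TPM in the young, 1.79, 2.02 and 2.44 TPM in the aged and 2.53, 3.01 and 3.00 TPM in the treated libraries. It varied least of the 9 genes, with a highest library 1.91 times the lowest, and treated library 2 was the highest of its group. Clic6 fell with age to 64.6% of the young mean (log2 fold change -0.46, SE 0.101, adjusted p = 0.0199). Treated against aged saline gave 0.32 (SE 0.101, adjusted p = 0.0507), with all 3 treated above all 3 aged libraries. This difference passed under 5 of 18 other settings, with adjusted p-values from 0.0181 to 0.57 over them all.

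Otx2 encodes a homeodomain transcription factor that is needed to form and keep the choroid plexus, and whose protein the plexus secretes (chromosome 14, 48656781 to 48667644, mm10). It was 2.51, 2.62 and 2.85 TPM in the young, 4.95, 3.72 and 2.94 TPM in the aged and 1.05, 0.641 and 0.784 TPM in the treated libraries. The aged libraries were all above the young, which held for none of the other 8 genes, and the treated libraries lay below all others. Aged library 1, lowest for Ttr, was highest for Otx2, while within the treated libraries Otx2 took the order of Ttr. The difference with age did not pass (log2 fold change 0.39, SE 0.149, adjusted p = 0.0981). Otx2 fell with GRP-E1F2, from a mean of 3.87 ± 1.01 TPM in the aged saline libraries to 0.826 ± 0.21 TPM (SD, n = 3). The log2 fold change was -1.40 (SE 0.149, adjusted p = 0.000331). It was called in that comparison under each of the 18 other settings, with adjusted p-values from 0.000293 to 0.0421. All 6 cerebellar neuron genes fell in the same comparison, beside 13.4% of all tested genes. Pcp2 (-6.92), Cbln3 (-7.87) and Cbln1 (-4.73) were among the 6, and the part of these genes in the Otx2 result was not tested.

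The window of 250 bases before a start site was searched for TAATCC, the core that OTX proteins bind, on both strands (GGATTA on the other), because Otx2 moved unlike the genes it is listed with. RefSeq promoters of the build GRCm38.p6 matched 4 of the 9 genes, Kl, Otx2, Aqp1 and Slc4a5. Of the 32851 promoters given by RefSeq 6.25% held the core in this window. The windows of Kl, Aqp1 and Slc4a5 and the first, the second and the last of 4 Otx2 starts held no match, and the third Otx2 start held 1, at 211 bases before it. The matched core is in capitals, the rest is in lower case, and the stretches are shown so that genes lower with age (Kl and, tested with no filter, Slc4a5) can be set beside Aqp1 and Otx2. The Slc4a5 stretch is limited to the 82 bases nearest the start, since an annotated exon enters the window.
Kl (chr5:150952357-150952606, plus strand): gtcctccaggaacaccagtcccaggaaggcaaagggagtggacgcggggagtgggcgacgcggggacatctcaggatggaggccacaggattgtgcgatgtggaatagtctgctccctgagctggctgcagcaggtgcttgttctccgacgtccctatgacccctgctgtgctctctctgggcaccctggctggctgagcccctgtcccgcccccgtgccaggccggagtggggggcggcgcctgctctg
Slc4a5 (chr6:83237293-83237374, plus strand): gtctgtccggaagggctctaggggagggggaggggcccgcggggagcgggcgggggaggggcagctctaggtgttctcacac
Aqp1 (chr6:55336049-55336298, plus strand): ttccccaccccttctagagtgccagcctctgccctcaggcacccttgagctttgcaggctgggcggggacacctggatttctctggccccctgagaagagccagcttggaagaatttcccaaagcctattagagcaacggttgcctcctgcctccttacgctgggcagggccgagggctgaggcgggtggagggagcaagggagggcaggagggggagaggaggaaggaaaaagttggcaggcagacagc
Otx2, start 1 (chr14:48667645-48667894, minus strand): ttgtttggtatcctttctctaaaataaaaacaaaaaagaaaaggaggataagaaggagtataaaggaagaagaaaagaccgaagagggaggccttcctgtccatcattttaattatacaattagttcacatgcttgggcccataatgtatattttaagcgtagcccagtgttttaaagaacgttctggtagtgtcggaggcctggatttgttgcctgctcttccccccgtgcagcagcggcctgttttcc
Otx2, start 3 (chr14:48665303-48665332, minus strand): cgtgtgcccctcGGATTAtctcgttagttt

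The printed windows also differed in base composition. G and C made up 66.8% of the Kl window, 62.0% of that of Aqp1 and 42.0% of that of the first Otx2 start. A missing match says only that these letters are not in this window.

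The age comparison asked how brains of 18 and 5 months differed under saline. Of the 8 tested genes 5 fell, Folr1, Sostdc1, Enpp2, Kl and Clic6, and none rose. Kl was tested only because its young libraries were high, so its fall adds no support to the count. Over all tested genes 11.2% fell. The median log2 fold change of the 8 genes was -0.82, against -0.05 over all tested genes. It lay midway between Enpp2 (-0.92) and Kl (-0.73), so Kl also helped to set it. The aged and young libraries did not overlap for 8 of the 9 genes, 7 of them lower and 1, Otx2, higher in the aged, where 26.8% of all tested genes were lower without overlap. Here and below, the 9 genes include Slc4a5, while such shares cover tested genes only. An exact two-sided permutation test cannot go below p = 0.1 with 3 against 3 libraries, and the 8 genes without overlap reached that value.

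With 2 libraries per group none of the 8 genes passed (limma, adjusted p under 0.05), although 6 had an unadjusted p under 0.05. Leaving out young library 3 or aged library 2 also left none, leaving out young library 2 left 1, and leaving out young library 1, aged library 1 or treated library 3 left 2. Fewer choroid plexus cells in a sample and less RNA of these genes per cell cannot be told apart in bulk libraries.

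In the comparison of GRP-E1F2 with saline at 18 months, Otx2 was the only one of the 8 tested genes to pass, and it fell. Over all tested genes 20.8% passed, and 13.4% of all tested genes fell. The median log2 fold change of the 8 genes was 0.07, against -0.02 over all tested genes. Groups did not overlap for 3 of the 9 genes, Otx2 lower and Clic6 and Aqp1 higher in the treated, where 36.3% of all tested genes did not overlap in either direction. For Folr1 (-0.19, SE 0.385, adjusted p = 0.761), Kl (0.06, SE 0.183, adjusted p = 0.833), Sostdc1 (0.38, SE 0.328, adjusted p = 0.452) and Enpp2 (0.08, SE 0.175, adjusted p = 0.792), the treated and aged libraries overlapped. With 2 libraries per group Otx2 still passed.

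Treated against young libraries gave 5 falls of 8 tested genes and no rise, with Kl again tested only because of its young libraries. Folr1 had a log2 fold change of -1.71 (SE 0.385, adjusted p = 0.00603), Otx2 of -1.01 (adjusted p = 0.000696), Enpp2 of -0.84 (adjusted p = 0.00404), Kl of -0.67 (adjusted p = 0.0149) and Sostdc1 of -0.90 (adjusted p = 0.0494). The Sostdc1 call was lost under 13 of 18 other settings, whose adjusted p-values ran from 0.0114 to 0.24. Over all tested genes 29.4% fell, so a fall was common in this comparison. Groups did not overlap for 7 of the 9 genes, all lower in the treated, against 38.5% of all tested genes lower without overlap. Clic6 (-0.14, adjusted p = 0.293) and Aqp1 (-0.03, adjusted p = 0.912) were closest to the young level. With 2 libraries per group only Otx2 passed. The 3 comparisons share libraries in pairs, so their values are not separate evidence.

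**Figure D2:**
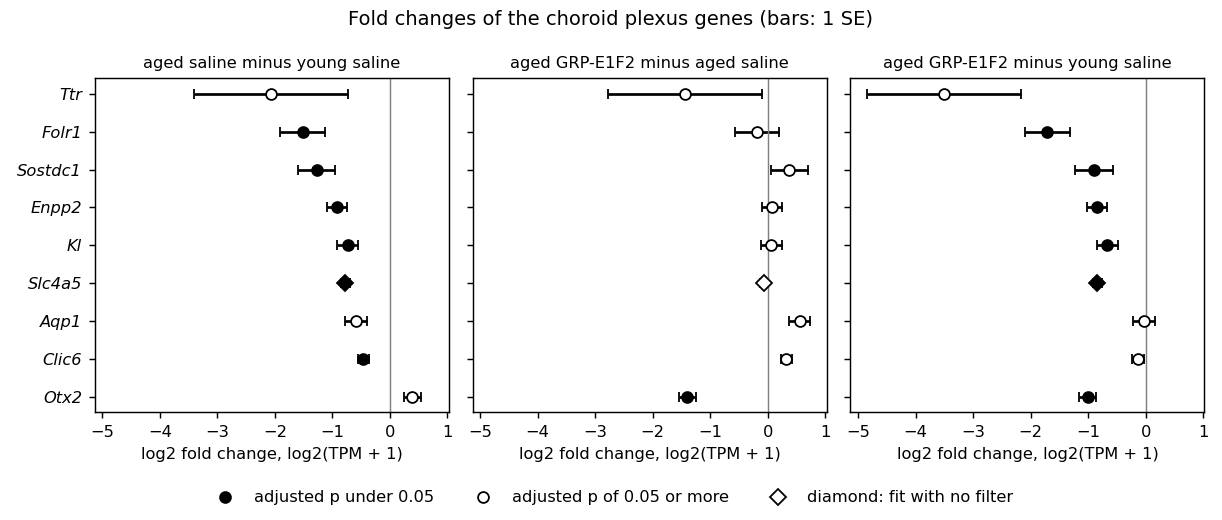
Log2 fold changes on the log2(TPM + 1) scale (horizontal axes) of the 9 genes in the 3 comparisons, with bars of 1 SE. Filled symbols have an adjusted p under 0.05 and diamonds mark Slc4a5, fitted with no filter. Ttr has the widest bars, and Otx2 is the filled point of the comparison of GRP-E1F2 with aged saline.

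The spread within a group also differed between the groups. The range from lowest to highest library, on the log2(TPM + 1) scale, had a median over the 8 tested genes of 0.11 in the young, 0.58 in the aged and 0.83 in the treated libraries. Over all tested genes the medians were 0.15, 0.21 and 0.19. Ttr had a range of 0.04 in the young, smaller than 93% of the tested genes. Its range was 3.00 in the aged and 5.84 in the treated libraries, wider than nearly all tested genes. Prl (0.360 to 554 TPM) and Gh (0 to 263.5 TPM) ranged more widely still in the treated libraries. Among the aged libraries, library 1 was lowest for Ttr, Folr1, Kl, Clic6 and Sostdc1, and library 3 highest for these and Slc4a5. Among the treated libraries, library 2 was lowest and library 1 highest for Ttr, Folr1, Kl, Otx2, Slc4a5, Sostdc1 and Enpp2. Aged library 1 was lowest of its group at 34.7% of all tested genes and treated library 2 at 49.8%.

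Set against Ttr in the same library, Folr1 was the steadiest of the genes. It stood at 2.31, 2.37 and 2.51 TPM per 1000 TPM of Ttr in the young, at 2.96, 1.91 and 1.65 in the aged and at 2.45, 4.54 and 2.28 in the treated libraries. That ratio differed 2.75-fold over the 9 libraries, while Folr1 itself differed 78.9-fold. For Kl, Sostdc1 and Enpp2 the ratio differed 34.5-fold, 45.9-fold and 61.4-fold, and for Clic6 and Aqp1 143-fold and 224-fold, with treated library 2 highest each time. Kl at 0.403 TPM, Sostdc1 at 1.43 TPM, Aqp1 at 1.95 TPM and Clic6 at 3.01 TPM were thus still listed in the library where Ttr and Folr1 were lowest.

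**Figure D3:**
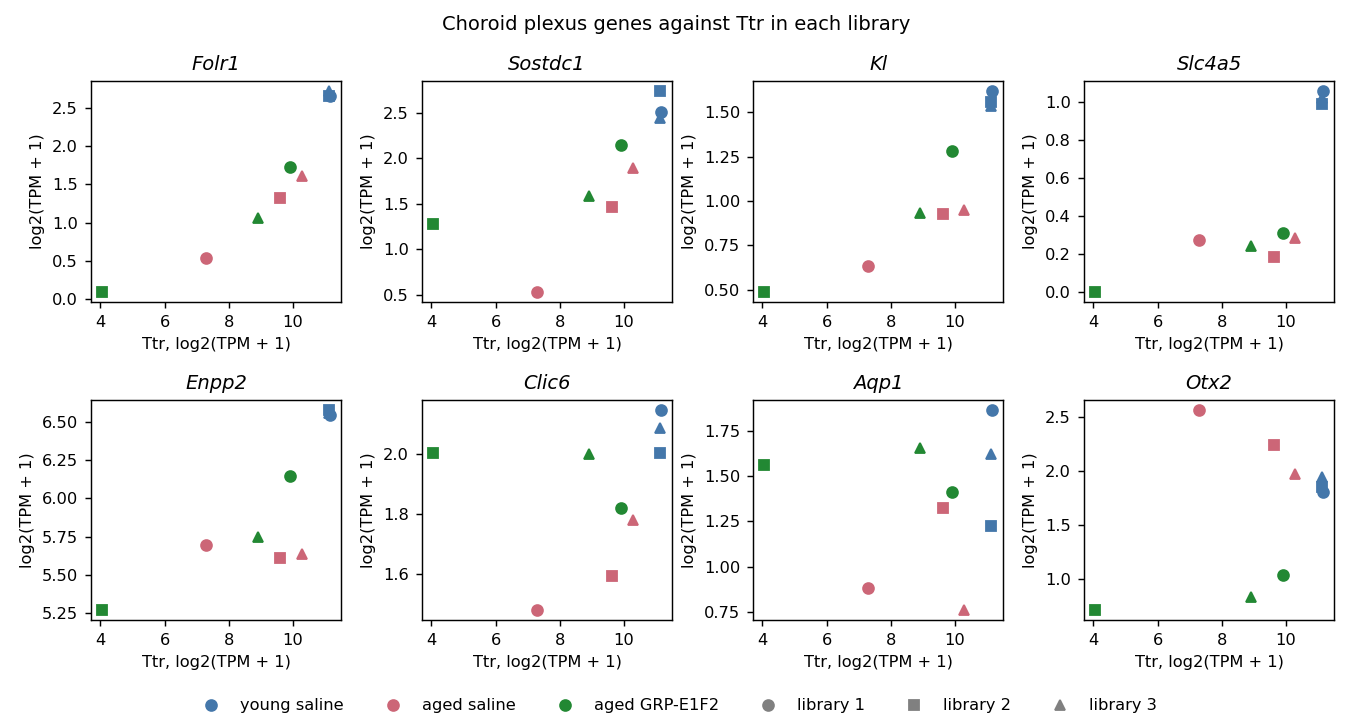
Level of 8 choroid plexus genes (vertical axes) against that of Ttr (horizontal axes), both as log2(TPM + 1), with 1 point per library, coloured by group and shaped by library number. Among the 6 aged and treated libraries Folr1 is higher wherever Ttr is, except that treated library 1 lies above aged library 3, while Clic6, Aqp1 and Otx2 are spread at a given level of Ttr.

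Genes of fluid secretion and ion transport form the wider pathway, and 11 of the 12 listed were tested. With age 5 of the 11 fell and none rose, beside the 11.2% of all tested genes that fell (median -0.26, against -0.05 over all tested genes). Kcne2, a potassium channel subunit of the choroid epithelium, fell from 11.96 ± 1.46 to 1.70 ± 1.48 TPM and was listed at 0 in aged library 1 and treated library 2, the libraries lowest for Ttr. The potassium channel gene Kcnj13 fell from 2.97 ± 0.666 to 1.16 ± 0.364 TPM, and the anion exchanger gene Slc4a2 from 14.9 ± 0.735 to 8.38 ± 1.22 TPM. Kcnj13, with a mean of 0.821 TPM in the treated libraries, passed the filter only through its young libraries. Its fall therefore adds no support to the count. The cation channel gene Trpm3 and the chloride cotransporter gene Slc12a2 (NKCC1) fell as well. The sodium pump subunit gene Atp1b1, widely used in brain cells, had a log2 fold change of -0.09 (adjusted p = 0.232), and the carbonic anhydrase gene Car2, abundant in oligodendrocytes, one of -0.20 (adjusted p = 0.0769).

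With GRP-E1F2 against saline 5 of these 11 genes fell and none rose, beside the 13.4% of all tested genes that fell, but Kcne2 (0.10, adjusted p = 0.922) and Kcnj13 (-0.29, adjusted p = 0.437) were not among them. The falls were those of Slc12a2, Slc4a2, Car2, Car14 and Trpm3, genes that other brain cells also express. Car14, a membrane carbonic anhydrase, had means of 30.1 ± 6.60 and 13.5 ± 7.52 TPM, a log2 fold change of -1.19 (adjusted p = 0.0217). With 2 libraries per group none of the 11 passed in either comparison, while 3 with age and 4 with GRP-E1F2 had an unadjusted p under 0.05 (limma).

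Of 16 other genes of the choroid epithelium 8 were tested. With age 2 of the 8 fell, Ace, which makes angiotensin II, and Slc29a4, a monoamine transporter, beside 11.2% of all tested genes. Ecrg4, a secreted peptide precursor, was 24.8, 28.4 and 24.4 TPM in the young, 3.89, 6.63 and 12.5 TPM in the aged and 8.44, 1.050 and 5.31 TPM in the treated libraries. Its difference with age just missed the threshold (log2 fold change -1.75, adjusted p = 0.0505), and that of treated against young passed (-2.43, adjusted p = 0.00481). The calmodulin-like gene Calml4 kept the order of Ttr, at 2.38, 8.0 and 9.26 TPM in the aged and 6.26, 0.427 and 3.24 TPM in the treated libraries (with age -1.07, adjusted p = 0.217). With GRP-E1F2 1 of the 8 rose and 1 fell, beside 7.47% and 13.4% of all tested genes. Htr2c, the serotonin receptor that the plexus shares with many neurons, rose from 7.05 ± 1.84 to 15.9 ± 3.14 TPM (1.07, adjusted p = 0.00328), and Slc29a4 fell (-0.93, adjusted p = 0.0078). Cab39l, which codes for a scaffold of the kinase LKB1, had a log2 fold change with age of -0.27 (adjusted p = 0.121).

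The 8 genes of the list below the filter were low throughout, such as the tight junction gene Cldn2 at 1.85 to 2.47 TPM in the young, 0.385 to 0.644 TPM in the aged and 0.0712 to 0.444 TPM in the treated libraries. Over both lists, the aged libraries were lower than the young without overlap at 21 of 28 genes and higher at 1, beside the 26.8% of all tested genes that were lower. Aged library 1 was lowest of its group at 5 of the 12 secretion and transport genes and 11 of the 16 epithelial genes, beside 34.7% of all tested genes. Treated library 2 was lowest at 8 of the 12 and 10 of the 16, beside 49.8%. These counts include Trpv4 and the 8 genes below the filter, while the shares cover tested genes only. With 2 libraries per group none of the 8 tested genes passed with age or with GRP-E1F2, while 3 and 2 had an unadjusted p under 0.05 (limma).

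Stromal genes of the plexus and meninges moved with age in the same direction. Of 9 tested 7 fell and none rose (median -0.72), beside the 11.2% of all tested genes that fell. Col3a1, 1 of the 7 and the gene at the median, passed the filter only through its young libraries. Its means were 1.92, 0.766 and 0.721 TPM in the young, aged and treated libraries. Igf2, a growth factor released by the plexus and meninges, fell from 44.8 ± 0.776 to 22.7 ± 6.21 TPM. The proteoglycan gene Dcn fell from 33.6 ± 4.97 to 11.6 ± 1.51 TPM. Igfbp2, which binds IGF2, had a log2 fold change of -0.37 (adjusted p = 0.0272). With GRP-E1F2 2 of the 9 fell, beside 13.4% of all tested genes, namely Dcn and Plvap, the diaphragm protein of fenestrated capillaries. The summed level of the 9 genes was 242 to 250 TPM in the young, 132 to 187 TPM in the aged and 145 to 149 TPM in the treated libraries. The treated libraries, which differed 61.0-fold in Ttr, were alike in this sum, most of which was Igfbp2 (98.9, 102.9 and 97.7 TPM). Single genes varied more in them. Col1a1, at 3.49, 1.74 and 2.74 TPM, took the order of Ttr, as did Igf2, Dcn and Col1a2. Plvap, at 6.71, 8.09 and 6.95 TPM, did not, nor did Igfbp2, Lum, Col3a1 and Slc6a13. Within the aged libraries all 9 genes took the order of Ttr, such as Igf2 at 16.5, 22.6 and 29.0 TPM. Aged library 1 was thus lowest for all 9, beside 34.7% of all tested genes. With 2 libraries per group none passed in either comparison, while 7 and 1 had an unadjusted p under 0.05 (limma).

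Genes of the ependyma, which lines the ventricles beside the plexus, were mostly those of motile cilia. None of the 6 tested passed with age, where 11.2% of all tested genes fell. With GRP-E1F2 1 of the 6 fell, Rarres2, which is no cilia gene, beside 13.4% of all tested genes. Dynlrb2, a dynein light chain gene, was 10.2, 2.46 and 6.83 TPM in the treated libraries, again lowest in library 2. Rsph1, at 11.3, 8.50 and 11.5 TPM, was also lowest there, as were Foxj1, Ccdc153 and Tmem212. Rarres2, at 41.8, 45.3 and 44.2 TPM, was not. Treated library 2 was lowest of its group at 49.8% of all tested genes. The abundant haemoglobin genes Hba-a1, Hbb-bs and Hbb-bt took the same order as Ttr within the aged and within the treated libraries, while Hba-a2, at 0 to 1.14 TPM, did not. Hba-a1 was 880, 1310 and 1524 TPM in the aged and 1532, 577 and 1049 TPM in the treated libraries, and Hbb-bs was 670, 886 and 1014 TPM and 1076, 446 and 763 TPM, and Hbb-bt was 127, 168 and 174 TPM and 159, 60.4 and 108 TPM. The summed level of 5 erythroid genes was 2428 to 3012 TPM in the young, 1680 to 2716 TPM in the aged and 1085 to 2770 TPM in the treated libraries, and none of the 4 tested passed with age or GRP-E1F2. The part of blood or of tissue sampled in the choroid plexus values was not tested.

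Markers of other tissues that make Ttr or Otx2 were also measured, and their part in the values of the 9 genes was not tested. Of 10 genes of the retinal pigment epithelium, which shares Ttr, Otx2 and Enpp2 with the plexus, 9 reached at most 0.716 TPM (Pmel), Best1 at most 0.527 TPM, and Rgr was listed at 0 in every library. The tenth, Rlbp1, also a glial gene, was 8.43 to 17.2 TPM and rose with age (0.50, adjusted p = 0.00571). Of 6 liver genes 5 reached at most 0.893 TPM (Serpina1a), Apoa1 at most 0.518 TPM, Alb at most 0.134 TPM, and Apoa2 was 2.69 to 5.29 TPM. The photoreceptor genes summed to 3.02 to 7.99 TPM, with Crx at 0.693 to 1.28 TPM. Sag and Nrl rose with GRP-E1F2 (0.93 and 0.83, adjusted p = 0.0149 and 0.0259). Sag passed the filter only through its treated libraries, with means of 0.982, 0.846 and 2.50 TPM in the young, aged and treated. The Nrl mean was 0.732 TPM in the aged libraries. The pineal genes Tph1, Aanat and Asmt reached at most 0.563 TPM.

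The partners of the 9 genes were taken from lists by function. Over all tested genes 5.48% rose and 11.2% fell with age, and 7.47% rose and 13.4% fell with GRP-E1F2. Of 11 genes that handle thyroid hormone and retinoids, the ligands of transthyretin and its partner, 1 rose and 2 fell with age. Rbp4, the plasma retinol carrier that binds transthyretin, rose from 15.7 ± 3.57 to 26.0 ± 4.33 TPM (0.70, adjusted p = 0.0349), while Dio3, which inactivates thyroid hormone, fell from 3.76 ± 0.145 to 0.765 ± 0.709 TPM (-1.51, adjusted p = 0.00852). With GRP-E1F2 4 rose, among them the thyroid hormone transporter Slco1c1 (0.23, adjusted p = 0.0313), and Hr, a thyroid hormone target, fell (-1.08, adjusted p = 0.00039). The most abundant of them, Thra, the thyroid hormone receptor alpha, rose with GRP-E1F2 (0.23, adjusted p = 0.0445), and Klf9 did not pass in either comparison.

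Of 7 tested genes of folate uptake and use none passed with age, beside the fall of Folr1. Slc46a1, the proton-coupled folate transporter that works with the receptor in the plexus, had a log2 fold change of -0.16 (adjusted p = 0.0981). With GRP-E1F2 3 fell, Slc19a1, Shmt1 and Aldh1l1 (-0.28, adjusted p = 0.0347). Mthfd1 passed in neither (-0.12 and -0.16, adjusted p = 0.287 and 0.143). Of the partners of Klotho, Fgfr1, its FGF receptor, fell with age from 38.8 ± 3.56 to 28.5 ± 3.99 TPM (adjusted p = 0.0229) and with GRP-E1F2 to 17.9 ± 0.146 TPM (adjusted p = 0.00289), while Fgf23 and Klb were under 0.661 TPM and not tested.

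Among 4 tested genes that answer or degrade the product of autotaxin, Lpar1, its main receptor on oligodendrocytes, fell with age from 20.7 ± 1.37 to 14.1 ± 0.657 TPM (-0.52, adjusted p = 0.00829), as did the phosphatase gene Plpp3 (-0.21, adjusted p = 0.0268). Plpp1 rose with GRP-E1F2 (0.30, adjusted p = 0.012). Of 6 BMP and Wnt genes that Sostdc1 touches, Bmp6 and Lrp5 fell with age (-0.41 and -0.29, adjusted p = 0.029 and 0.0366) and Lrp4, to which Sostdc1 binds, rose with GRP-E1F2 (0.43, adjusted p = 0.0191). Bmp7 and Lrp6 passed in neither. Of 2 other aquaporins tested, Aqp4, the channel of astrocyte endfeet, fell in both comparisons, from 43.7 ± 6.78 in the young to 21.8 ± 0.906 in the aged and 11.04 ± 1.13 TPM in the treated libraries. Aqp11 did not pass in either, and Aqp9 was at 0.12 to 1.11 TPM and not tested.

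None of these partner genes passed with age in the fit of 2 libraries per group, and with GRP-E1F2 Hr and Aqp4 alone did. With age, 2 of the 11 thyroid hormone and retinoid genes, Fgfr1, 1 of 4 lysophosphatidic acid genes, 1 of 2 aquaporins and none of the folate, BMP and Wnt genes had an unadjusted p under 0.05 in that fit (limma). Rlbp1, Sag, Nrl and Rarres2 also passed in neither comparison there.

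The genes most like the 9 in pattern were ranked by the Pearson correlation, over the 9 libraries, of their log2(TPM + 1) with the mean standardised level of the 9 genes. The libraries of a group share their source and 3 of them lie between others, so the values only describe likeness. Angptl4, an inhibitor of lipoprotein lipase, came first at 0.986, followed by the heat shock gene Hspb1 and the interleukin 11 receptor gene Il11ra1 at 0.976 each, Tram1 at 0.974 and Ttyh1 at 0.973. Kcne2 followed at 0.972, and Edc4, Elp6, Far2 and Reps1 lay between 0.964 and 0.971. Il11ra1 was 24.2, 29.8 and 25.7 TPM in the young, 5.55, 8.01 and 11.6 TPM in the aged and 13.3, 5.50 and 9.07 TPM in the treated libraries. Kcne2 alone of these 10 was in the lists of choroid plexus genes. Of the 9 genes themselves Kl and Folr1 were most like the mean at 0.984 and 0.976, and Otx2 least at 0.172.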

How the data were processed

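RNA sequencing of 9 libraries gave TPM values, which the authors computed and deposited per gene and library. The submitters' processing notes name the build mm10 and the tools HISAT2, GATK, Picard and SAMtools 0.1.18. For the TPM step, the tool and its handling of strand and shared reads were not given in the sources used here. Library sums were 999667 to 999929 TPM, with 16715 to 16962 genes above 0. TPM keeps no depth, so no counting error could be given, and a value of 0 means only listed at 0.

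Values were transformed to log2(TPM + 1), which understates changes of low genes. Genes averaging 1 TPM or more were fitted over all 9 libraries with limma 3.58.1 in R 4.3.3 (trended eBayes). Tests were two-sided, p-values were Benjamini-Hochberg adjusted over all tested genes, and an adjusted p under 0.05 counts as called. The script was first tested on simulated data. Exact permutation tests of the 9 genes in 3 comparisons (27 in all) had adjusted p-values of at least 0.15. Positions and promoters are from RefSeq (GRCm38.p6, also called mm10), and exons from GENCODE. The replicate numbers only number the samples.

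The 9 genes and all lists were chosen with earlier results of these data known. The naming rule took all 9, the 3 most abundant genes per list and the 10 most alike in pattern, leaving out predicted genes. Further list genes were named after their values were seen, and a few genes of the lists are not reported here by name. Other tools were Python 3.11.15, numpy 2.4.6, pandas 2.3.3 and matplotlib 3.10.9.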

Additional observations from a re-analysis of the deposited data

How the results depend on the processing

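TPM values carry no depth, and 7 of the 9 genes lay between 0 and 5.70 TPM, so their low values cannot be given a counting error. Of 438 refitted log2 fold changes of the 8 tested genes under other settings, 369 kept their direction and side of the threshold, 48 no longer passed, 10 newly passed and 11 changed sign.

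With age, where 5 genes were called, a pseudocount of 0.1 TPM gave 2, a mean of at least 5 TPM left 2 genes to test and gave 1, and 2 libraries per group gave 0. Without any 1 library the count lay between 0 and 6. With GRP-E1F2 against saline, where 1 was called, a mean of at least 5 TPM gave 0, median-of-ratios scaling 2, quantile normalisation 3 and eBayes without trend 2, and leaving out 1 library gave 1 to 2. For treated against young, where 5 were called, a mean of at least 5 TPM gave 1, 2 libraries per group 1, and leaving out 1 library 4 to 6. The cause was not tested, apart from the fewer genes or libraries that these settings leave.

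With the replicate block, 4 genes were called with age, 1 with GRP-E1F2 and 4 for treated against young. Samples with the same number did not deviate together (correlations across genes of -0.06 to 0.13), so the number is no pairing.

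Signs changed for Aqp1, treated against young (-0.03), under median-of-ratios scaling (0.022) and quantile normalisation (0.088), and with 1 library left out it ranged from -0.203 to 0.118 (positive without young library 1 or treated library 1). For GRP-E1F2 against saline, leaving out 1 library gave -2.575 to 0.346 for Ttr (positive without treated library 2), -0.574 to 0.244 for Folr1 (positive without treated library 2 or aged library 3), -0.127 to 0.27 for Kl (negative without treated library 1 or aged library 1), -0.137 to 0.302 for Enpp2 (negative without treated library 1) and -0.005 to 0.677 for Sostdc1 (negative without aged library 1). None of the values that changed sign passed.

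Over all tested genes, 2217 were called with age, 2771 with GRP-E1F2 and 6204 for treated against young, and 3, 248 and 1713 with 2 libraries per group. Leaving out 1 library gave 371 to 2635, 1345 to 3060 and 4737 to 6635. Quantile normalisation turned 729 rises and 1488 falls with age into 966 and 1102, 994 and 1777 with GRP-E1F2 into 1466 and 1470, and 2294 and 3910 for treated against young into 3115 and 2978. Median-of-ratios scaling gave 925 and 1025, 1302 and 1613, and 3015 and 3074.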
